A study of Mus musculus with 6 samples.

Results

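The proteasome subunit genes on the array were taken as the probes whose gene symbol begins with Psma, Psmb, Psmc, Psmd or Psme followed by a number, leaving out the interferon-induced subunits *Psmb8*, *Psmb9* and *Psmb10*. This rule found 71 probes for 41 gene symbols among the 45281 probes and 30774 symbols of the array. Of these, 24 probes belonged to 16 genes of the core particle (*Psma* and *Psmb*) and 46 probes to 24 genes of the regulatory particle and the activators (*Psmc*, *Psmd* and *Psme*). The remaining probe was for *Psmc3ip*, a meiotic recombination factor that meets the rule by its name but is no proteasome subunit, and it was kept apart. A probe was tested when its detection score was above 0.99 on at least 3 arrays, which 58 of the 71 probes and 14621 of all 45281 probes passed.

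The data were 6 Illumina MouseWG-6 v2.0 bead arrays of mouse embryonic stem (ES) cells of the 129/SvEv strain, 3 for each miRNA mimic. All 6 samples carried deletions of both *Ago2* and *Dicer1* and a transgene for myc-tagged Ago2 driven by the ubiquitous CAG promoter, *Dicer1* being the gene of the enzyme that makes mature miRNAs. The cells grew without feeders in medium with 15% FCS and 2000 U/ml LIF, and received 300 pmol of mimic together with 1 µg of the GFP plasmid pEGFP-1 by nucleofection. GFP-positive cells were sorted after 24 h. One group received the mimic of miR-294, the other the *C. elegans* miRNA cel-239b as the control, and transfections were in triplicate. The deleted lines were picked as single colonies, and the number of clones behind the 6 arrays is not given in the sources used here. If they came from 1 clone, the p-values below measure the spread between transfections of that clone.

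The proteasome is the protease that degrades ubiquitinated proteins in the cytosol and nucleus. Its core particle is a barrel of stacked rings, with outer rings of alpha subunits that gate the entry and inner rings of beta subunits that hold the active sites. The regulatory particle caps the barrel, its base unfolding substrates with a ring of ATPases and its lid removing ubiquitin, while the activators of the *Psme* genes bind the same end of the barrel without needing ubiquitin. Subunit genes of the core and the regulatory particle are known to be regulated together, whereas *Psme1* and *Psme2* are known as interferon-induced genes.

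The miRNA that distinguished the groups is shown first because its seed is what it reads in an mRNA. The mature miRNA lies at chr7:3220691-3220712 on the plus strand of GRCm38.p6, and its sequence from RefSeq is printed with the seed, bases 2 to 8, in capitals.
mmu-miR-294-3p: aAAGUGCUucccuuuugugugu

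Few proteasome subunit genes passed the test of miR-294 against cel-239b. With limma and Benjamini-Hochberg adjustment over all tested probes, 5 of the 58 tested probes passed an adjusted p of 0.05 (8.62%), against 4721 of all 14621 tested probes (32.3%). Higher with miR-294 were 2 of the 58, *Psmd9* and *Psmc5*, each by only 1 of its 2 probes, where 16% of all tested probes were higher. Lower were 3 of the 58, both probes of *Psme1* and the probe of *Psme2*, where 16.3% of all tested probes were lower. None reached a B-statistic above 5, the log odds threshold of the study, which 1.47% of all tested probes passed. At an unadjusted p below 0.05 there were 10 of the 58 higher (background 22.7%) and 3 lower (background 21.6%), both shares below those of all tested probes. The arrays of the groups did not overlap for 8 probes that were higher (background 24.3%) and 9 that were lower (background 23.6%).

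The size of the differences was small. Over 1 probe for each of the 36 names tested, taking the brightest, the median log2 fold change was -0.01 with a median size of 0.08, while over all 10613 tested names the median was 0 and the median size 0.16. A log2 fold change within 0.2 of zero was found for 48 of the 58 probes (82.8%) and for 57.6% of all tested probes. Most subunit probes were bright, and the spread of bright probes is small, so a background of like brightness was added after the data had been seen. In the range of mean log2 signal from 10.7 to 14.0 that the core probes other than *Psma8* span, 538 of 1839 tested probes passed the test (29.3%) and the median size over names was 0.11. Of the probes in this range, 71.8% lay within 0.2 of zero. Because whole sorted populations were measured, fewer cells of a kind and less RNA per cell cannot be told apart in any of these values.

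**Figure D1:**
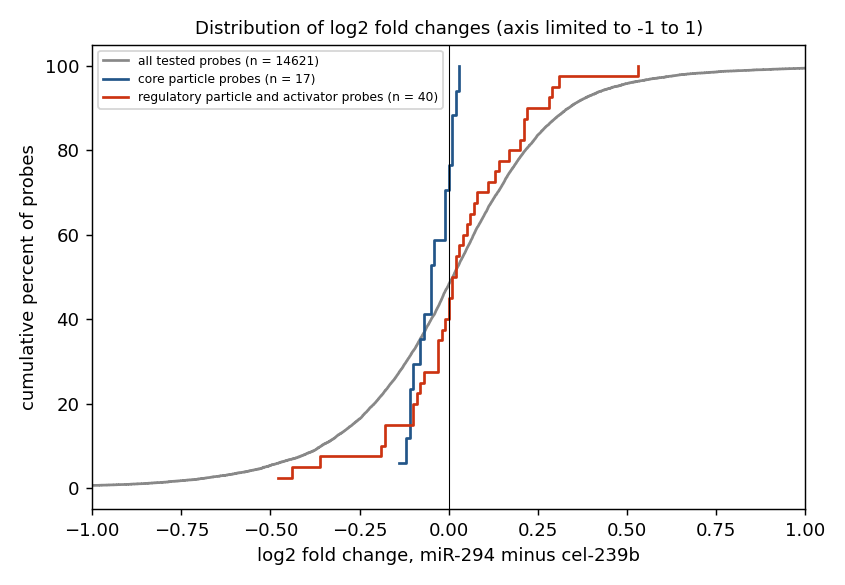
Cumulative percent of tested probes (vertical axis) at or below each log2 fold change of miR-294 against cel-239b (horizontal axis, from -1 to 1), for the 17 core probes, the 40 regulatory and activator probes and all 14621 tested probes. The core line climbs from -0.14 to 0.03, and the regulatory line runs from -0.48 to 0.53.

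The plot of cumulative fold changes shows the core probes within a narrow range just below zero, inside which the much wider distribution of all tested probes holds only a part. The regulatory and activator probes lie nearer to that wide distribution and have a step at each end, made by the *Psme* probes on the left and *Psmd9* on the right.

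Technical facts of the arrays bear on all of these values. The arrays detected 13855 to 14920 probes each, and their median raw intensity was 62.2 to 72.4. Log2 signals correlated at 0.995 to 0.997 within a group and at 0.983 to 0.988 between groups, across probes. All 10 ES cell marker genes found on the array were detected on at least 3 arrays, with 4 of their probes higher with miR-294 (2 of *Nanog*, by 0.19 and 0.62, *Esrrb* by 0.34 and *Zfp42* by 0.22) and 1 lower (*Tdgf1*, -0.39). None of the 6 endoderm or 4 neural markers was detected on any. Of 8 fibroblast markers 1, *Thy1*, was detected on at least 3 arrays, which were the 3 miR-294 arrays and 0 cel-239b arrays. Of 4 mesoderm markers 2 were detected, *T* on the 3 miR-294 arrays and 0 cel-239b arrays, and *Eomes*, which rose by 0.64, on all 6. Their part in the proteasome values was not tested.

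The core particle showed no change that passed the test. Of its 17 tested probes, which covered 12 genes, 0 passed an adjusted p of 0.05 in limma (background 32.3%, or 29.3% at like brightness) and 0 had an unadjusted p below 0.05 (background 22.7% higher and 21.6% lower). Among the alternative fits, only the variance-stabilizing transformation called a core probe, *Psma5*, lower. The log2 fold changes ran from -0.14 to 0.03, and their 95% intervals lay between -0.41 and 0.25. Over 12 genes the median was -0.06 (SD 0.05 across genes), with 10 genes below zero and 2 above. With median scaling in place of quantile normalization this median was 0.00, so its distance from zero depended on the scaling. For 4 core probes every miR-294 array lay below every cel-239b array and for 0 every one lay above (background 24.3%). The 4 of 17 are at the background of 23.6%.

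Among the alpha subunits, 6 probes of 5 genes were tested. The lowest was *Psma5*, an outer ring subunit, whose log2 signal was 13.68, 13.63 and 13.70 on the cel-239b arrays and 13.59, 13.49 and 13.59 on the miR-294 arrays. All miR-294 arrays were below all cel-239b arrays, although the gap was small, with a log2 fold change of -0.12 (SE 0.06, 95% interval -0.25 to 0.02, adjusted p = 0.16). *Psma4* had the same order of arrays with a log2 fold change of -0.10 (95% interval -0.22 to 0.03, adjusted p = 0.21). *Psma2* gave -0.05, and the probes of *Psma7* gave 0.01 and 0.02, with overlapping groups. *Psma8*, a subunit known from the testis, was the dimmest core gene tested, at 7.23, 7.00 and 6.69 with cel-239b and 6.96, 7.00 and 6.72 with miR-294. Its replicates spread over more than the difference of -0.08 between the groups, and its interval from -0.41 to 0.25 was the widest in the core.

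Among the beta subunits, 11 probes of 7 genes were tested and their 95% intervals lay between -0.32 and 0.19. The catalytic ones are *Psmb5*, *Psmb6* and *Psmb7*, which carry the chymotrypsin-like, caspase-like and trypsin-like activity. *Psmb5* was at 10.73, 10.82 and 10.85 on the cel-239b arrays and at 10.79, 10.57 and 10.61 on the miR-294 arrays. The first miR-294 array fell among the controls while the other two lay below them, and the log2 fold change was -0.14 (SE 0.08, 95% interval -0.32 to 0.03, adjusted p = 0.18). *Psmb6* was at 13.38, 13.35 and 13.34 with cel-239b and at 13.28 on all 3 arrays with miR-294. Its groups did not overlap, yet the log2 fold change was only -0.07 (SE 0.05, 95% interval -0.19 to 0.04, adjusted p = 0.29).

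*Psmb7* was measured by 4 probes that gave nearly the same answer. Probe 3060537 was at 13.15, 13.14 and 13.25 with cel-239b and at 13.22, 13.15 and 13.18 with miR-294. Probe 2810128 was at 13.03, 13.02 and 13.08 with cel-239b and at 13.11, 13.07 and 13.04 with miR-294. In both, the arrays of the groups were interleaved, and the log2 fold changes were 0.00 and 0.03. Probe 2360370 was at 12.52, 12.62 and 12.66 with cel-239b and at 12.61, 12.51 and 12.57 with miR-294, and probe 3360376 was at 11.26, 11.37 and 11.37 against 11.38, 11.20 and 11.44. Their log2 fold changes were -0.04 and 0.01, again with interleaved groups, and adjusted p-values over the 4 probes ran from 0.68 to 0.96. The noncatalytic subunits gave -0.05 for *Psmb1*, -0.11 for each of the probes of *Psmb2*, and -0.01 for *Psmb3* and *Psmb4*. Of these, 1 probe of *Psmb2* (3170427) had groups that did not overlap.

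**Figure D2:**
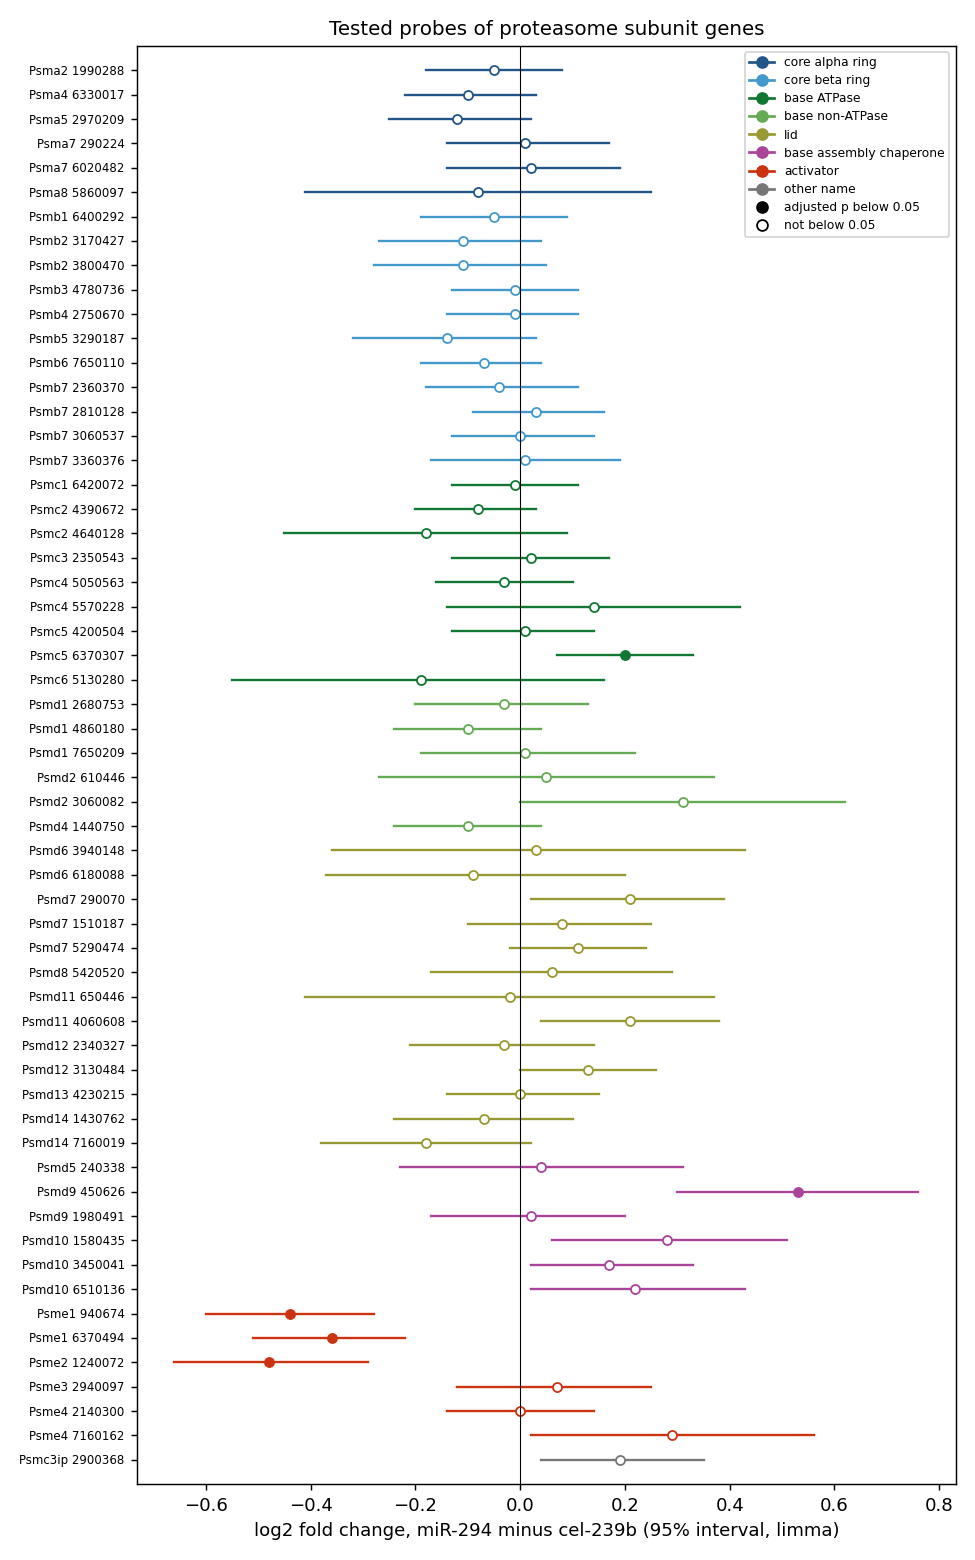
Log2 fold change of miR-294 against cel-239b (horizontal axis) with its 95% interval from limma for each of the 58 tested probes, by structural group, with 3 arrays a group. Filled points have an adjusted p below 0.05, which are 1 probe each of Psmc5 and Psmd9 on the right of zero and both Psme1 probes and Psme2 on the left.

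The regulatory particle and the activators held all the changes that passed the test. Of 40 tested probes of 23 genes, 2 were higher and 3 lower (12.5%, against 32.3% of all tested probes), and the median over genes was 0.01 (SD 0.22 across genes). Without *Psme1* and *Psme2*, a set formed after their values had been seen, 2 of the remaining 37 probes were higher (background 16%). At an unadjusted p below 0.05, 9 of the 37 were higher, close to the 22.7% of all tested probes that were higher by that rule. By both rules 0 were lower, which was fixed in advance, since the only probes that were lower had been left out. The 28 tested probes of the base and lid alone, from 16 genes, had 1 probe higher (background 16%) and 0 lower (background 16.3%). The interval plot shows this as open circles along zero for the base and lid, apart from the filled point of *Psmc5*, with the other filled points among the chaperones and activators.

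The ATPases of the base, which thread substrates into the core, were tested by 9 probes of all 6 genes, with a median of -0.02 over genes. Only *Psmc5* had a probe that passed the test. Its probe 6370307 was at 11.85, 11.81 and 11.90 with cel-239b and at 12.09, 12.07 and 12.01 with miR-294. Every miR-294 array was above every control, with a log2 fold change of 0.20 (SE 0.06, 95% interval 0.07 to 0.33, adjusted p = 0.032), a level 1.15 times as high. The other probe of *Psmc5*, 4200504, was at 12.24, 12.21 and 12.30 with cel-239b and at 12.26, 12.21 and 12.31 with miR-294, a difference of 0.01 (95% interval -0.13 to 0.14, adjusted p = 0.94). The probes thus gave different estimates, and they were compared after these values had been seen. The difference between them on the same array ran from -0.40 to -0.39 with cel-239b and from -0.30 to -0.14 with miR-294 (exact permutation test, two-sided p = 0.1, the smallest that 3 arrays against 3 can give). The call of probe 6370307 did not hold with the replicate number as a block (adjusted p = 0.067), with median scaling (0.062), or without cel-239b replicate 1 (0.058), cel-239b replicate 2 (0.10), cel-239b replicate 3 (0.056), miR-294 replicate 1 (0.090) or miR-294 replicate 2 (0.084).

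The other ATPase probes gave -0.01 for *Psmc1*, -0.08 and -0.18 for *Psmc2*, 0.02 for *Psmc3*, -0.03 and 0.14 for *Psmc4* and -0.19 for *Psmc6*, with adjusted p-values of 0.24 or more. The *Psmc4* probe at 0.14 was detected on 1 cel-239b and 3 miR-294 arrays, so it passed the detection filter only through the group where it was higher. The dimmer probes had the wider intervals, up to -0.55 to 0.16 for *Psmc6*, which was detected on 5 arrays and was called lower without miR-294 replicate 2 (-0.37, adjusted p = 0.039). For 1 probe of *Psmc2*, 4390672, the groups did not overlap, with values of 13.34, 13.36 and 13.33 against 13.26 on each miR-294 array, and the variance-stabilizing transformation called it lower (-0.08, adjusted p = 0.043).

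The other base subunits are the scaffolds *Psmd1* and *Psmd2*, which bind ubiquitin-like domains and shuttling factors, and the ubiquitin receptor *Psmd4*. None of their 6 probes passed the test (background 32.3%), at an adjusted or an unadjusted p of 0.05. The largest difference was that of *Psmd2* probe 3060082, at 7.06, 6.60 and 7.00 with cel-239b and 7.30, 7.23 and 7.03 with miR-294. The lowest miR-294 array overlapped the controls, and the log2 fold change was 0.31 (SE 0.13, 95% interval 0.00 to 0.62, adjusted p = 0.12). It was 0.16 without cel-239b replicate 2 and 0.10 with the variance-stabilizing transformation. The other probe of *Psmd2* gave 0.05 (95% interval -0.27 to 0.37). The 3 probes of *Psmd1* gave -0.03, -0.10 and 0.01. *Psmd4* was at 13.07, 13.03 and 13.06 with cel-239b and 13.00, 12.98 and 12.87 with miR-294, all of them below the controls, with a log2 fold change of -0.10 (95% interval -0.24 to 0.04, adjusted p = 0.22).

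The lid, which holds the deubiquitinase *Psmd14* and its partner *Psmd7*, was tested by 13 probes of 7 genes, and 0 passed in limma (background 32.3%). At an unadjusted p below 0.05, 3 of the 13 were higher (background 22.7%) and 0 lower (background 21.6%), and the groups did not overlap for 4 of the 13, all higher (background 24.3%). The first of these shares is at the background and the second not far from it. The largest sizes were those of *Psmd7* and *Psmd11*. *Psmd7* probe 290070 was at 11.73, 11.54 and 11.75 with cel-239b and at 11.90, 11.95 and 11.80 with miR-294, with a log2 fold change of 0.21 (SE 0.08, 95% interval 0.02 to 0.39, adjusted p = 0.081). *Psmd11* probe 4060608, of a lid scaffold subunit, was at 9.57, 9.33 and 9.50 with cel-239b and at 9.69, 9.65 and 9.71 with miR-294, with a log2 fold change of 0.21 (SE 0.07, 95% interval 0.04 to 0.38, adjusted p = 0.060). In both, all miR-294 arrays lay above all controls, but the adjusted p-values missed the threshold as reported. Among the 16 alternative fits *Psmd11* probe 4060608 was called in 5, once by leaving out cel-239b replicate 1 (0.26, adjusted p = 0.036), and *Psmd7* probe 290070 in 2.

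The further probes of these genes did not follow as far. The other *Psmd7* probes gave 0.08 and 0.11, and the other *Psmd11* probe gave -0.02 with an interval from -0.41 to 0.37. *Psmd12*, another lid scaffold, had 1 probe at 0.13 with groups that did not overlap (adjusted p = 0.10) and 1 at -0.03. The probes of *Psmd14* gave -0.07 and -0.18, those of *Psmd6* 0.03 and -0.09, *Psmd8* 0.06 and *Psmd13* 0.00. The variance-stabilizing transformation called *Psmd12* probe 3130484 (0.13) and *Psmd7* probe 5290474 (0.11) higher, and leaving out cel-239b replicate 1 called *Psmd14* probe 7160019 lower (-0.26, adjusted p = 0.043).

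The assembly chaperones of the base, *Psmd5*, *Psmd9* and *Psmd10*, escort the ATPases while the ring forms and are absent from the finished particle. All 6 of their tested probes, from 3 genes, had a log2 fold change above zero, as had 7574 of all 14621 tested probes. The second *Psmd9* probe was at -0.003 with median scaling. Of the 6, 1 passed the test (background 32.3%) and 4 had an unadjusted p below 0.05 (background 22.7% higher). Those 4 were a *Psmd9* probe and the probes of *Psmd10*, so they are not separate genes. *Psmd9* probe 450626 was at 7.08, 7.35 and 7.36 with cel-239b and at 7.66, 7.88 and 7.85 with miR-294. No control reached the lowest miR-294 array, and the mean rose from 7.26 ± 0.16 to 7.79 ± 0.12 (SD, n = 3), a log2 fold change of 0.53 (SE 0.10, 95% interval 0.30 to 0.76, adjusted p = 0.0069). This was the largest rise among the members, 1.44 times, and with the variance-stabilizing transformation it was smaller, at 0.22 (adjusted p = 0.0036). The raw intensities of this probe, 173.2, 203.0 and 241.1 with cel-239b and 224.4, 270.9 and 279.2 with miR-294, overlapped before normalization.

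The second probe of *Psmd9*, 1980491, did not follow. It was at 6.15, 5.93 and 6.05 with cel-239b and at 6.17, 5.98 and 6.03 with miR-294, so that the groups were interleaved, with a log2 fold change of 0.02 (SE 0.08, 95% interval -0.17 to 0.20, adjusted p = 0.88). The difference between the *Psmd9* probes on the same array was 0.93 to 1.41 with cel-239b and 1.49 to 1.90 with miR-294, which is higher by 0.51 on average (exact permutation test, two-sided p = 0.1, the smallest possible).

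*Psmd10*, also known as gankyrin, had 3 probes that all lay in the same direction and all missed the threshold as reported. Their log2 fold changes were 0.28 (adjusted p = 0.058), 0.17 (0.081) and 0.22 (0.094), and only for the probe at 0.17 did the groups not overlap. That probe was at 9.57, 9.43 and 9.40 with cel-239b and at 9.66, 9.59 and 9.67 with miR-294. Among the 16 alternative fits probe 1580435, at 0.28, was called in 6, the replicate block (adjusted p = 0.031) included, probe 3450041 in 3 and probe 6510136 in 1. *Psmd5* gave 0.04 with a 95% interval from -0.23 to 0.31. *Psmc3ip*, outside the proteasome, gave 0.19 (adjusted p = 0.064), with all miR-294 arrays above the controls, and was called in 5 of 16 alternative fits, once by leaving out miR-294 replicate 2 (0.25, adjusted p = 0.036).

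*Psme1* and *Psme2*, which encode the alpha and beta subunits of the interferon-induced activator PA28, fell by 0.36 to 0.48 on the log2 scale, while the other activators, *Psme3*, the nuclear PA28 gamma, and *Psme4*, the large activator PA200, had no probe that passed the test as reported. The probes of *Psme1* and *Psme2* were the only member probes lower at an adjusted p of 0.05 as reported, and each of the 3 was called lower in all 16 alternative fits. *Psme1* and *Psme2* lie close together on chromosome 14, with 1 gene, *Emc9*, between them.

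*Psme1* probe 940674 was at 11.13, 11.34 and 11.17 with cel-239b and at 10.81, 10.76 and 10.75 with miR-294. All miR-294 arrays lay below all controls, and they were close to each other, the mean moving from 11.21 ± 0.11 to 10.77 ± 0.03 (SD, n = 3). The log2 fold change was -0.44 (SE 0.07, 95% interval -0.60 to -0.28, adjusted p = 0.0036), or 26.4% lower. The second *Psme1* probe, 6370494, was at 10.09, 10.25 and 10.18 with cel-239b and at 9.86, 9.78 and 9.79 with miR-294. It showed the same order, with a log2 fold change of -0.36 (SE 0.06, 95% interval -0.51 to -0.22, adjusted p = 0.0052), or 22.3% lower.

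*Psme2* probe 1240072 was at 9.33, 9.27 and 9.33 with cel-239b and at 8.89, 8.93 and 8.68 with miR-294. Here the controls were tight and the third miR-294 array was the lowest, with means of 9.31 ± 0.04 and 8.83 ± 0.14 (SD, n = 3). The log2 fold change was -0.48 (SE 0.08, 95% interval -0.66 to -0.29, adjusted p = 0.0043), or 28.1% lower, the largest fall among the members. The raw intensities of *Psme2*, 641.9, 646.2 and 807.9 against 473.1, 514.4 and 462.2, did not overlap before normalization.

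*Psme3* was at 10.96, 11.17 and 11.04 with cel-239b and at 11.22, 11.02 and 11.13 with miR-294, a difference of 0.07 (SE 0.08, 95% interval -0.12 to 0.25, adjusted p = 0.55). *Psme4* probe 2140300 was at 12.52, 12.52 and 12.63 with cel-239b and at 12.57, 12.50 and 12.61 with miR-294, a difference of 0.00 (SE 0.06, 95% interval -0.14 to 0.14, adjusted p = 1). The groups were interleaved in both genes, and neither interval reaches the falls of *Psme1* and *Psme2*. A dim second probe of *Psme4*, 7160162, detected on 5 arrays, gave 0.29 (SE 0.12, 95% interval 0.02 to 0.56, adjusted p = 0.097). It was called with array weights (0.33, adjusted p = 0.044) and without cel-239b replicate 1 (0.41, adjusted p = 0.013).

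The difference between the activators was also set within each array, in comparisons chosen after the values had been seen. *Psme1* (probe 940674) fell relative to *Psme3* by 0.51 and relative to *Psme4* by 0.44 on the log2 scale, and *Psme2* fell by 0.54 and 0.48. In each of these the groups did not overlap, and each exact permutation test gave a two-sided p of 0.1, the smallest that 3 arrays against 3 allow. With the *Psmd9*, *Psmc5* and *Psme1* probe pairs, 7 such comparisons were made. The *Psme1* probes differed in size by 0.08 on average, the first falling further, also with groups that did not overlap and p = 0.1 in the exact permutation test. With this smallest p in every comparison, none passes a threshold of 0.05 before or after adjustment.

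**Figure D3:**
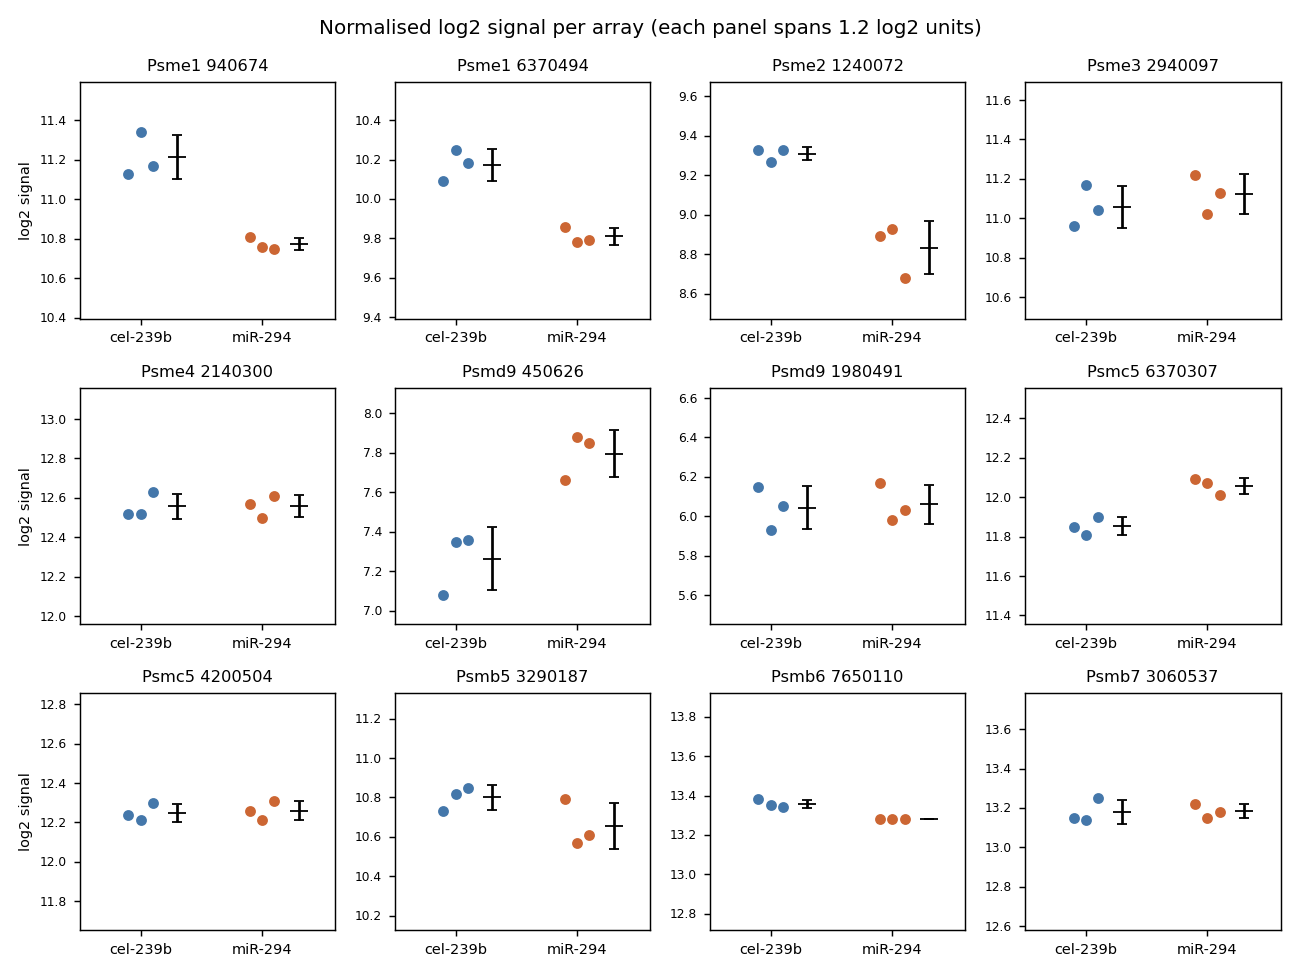
Normalised log2 signal (vertical axis, each panel 1.2 log2 units high) on each array for 12 member probes, with points for the 3 arrays of each mimic and bars for the mean and SD. The groups are apart for both Psme1 probes, Psme2, Psmd9 probe 450626, Psmc5 probe 6370307 and, by a small step, Psmb6, and they overlap for the other panels.

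The plot of single arrays sets the 2 probes of *Psmd9* and of *Psmc5* side by side, with a step between the groups in the first and none in the second. It also shows that the steps of *Psme1* and *Psme2* are larger than the spread of their replicates, and that of *Psmb6* is not much larger than the height of a point.

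The promoters of the genes that changed most are printed to show what a motif search read, from 250 bases before to 50 after the RefSeq start on GRCm38.p6. Capitals mark GAAANNGAA, the core of the interferon-stimulated response element, searched on both strands. The *Psme1* window is chr14:55578244-55578543 on the plus strand, with a match on the opposite strand at bases 11 to 19 after the start. The *Psme2* window is chr14:55591052-55591351 on the minus strand, and it holds no match, nor does the other of its 2 windows. The *Psmd9* window is chr5:123227940-123228239 on the plus strand, with a match at positions -159 to -151.
Psme1: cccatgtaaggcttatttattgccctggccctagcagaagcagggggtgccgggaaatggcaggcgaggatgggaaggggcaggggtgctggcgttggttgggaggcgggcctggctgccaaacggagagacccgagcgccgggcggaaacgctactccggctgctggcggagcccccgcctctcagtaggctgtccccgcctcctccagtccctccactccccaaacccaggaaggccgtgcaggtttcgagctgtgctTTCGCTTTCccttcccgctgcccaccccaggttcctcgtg
Psme2: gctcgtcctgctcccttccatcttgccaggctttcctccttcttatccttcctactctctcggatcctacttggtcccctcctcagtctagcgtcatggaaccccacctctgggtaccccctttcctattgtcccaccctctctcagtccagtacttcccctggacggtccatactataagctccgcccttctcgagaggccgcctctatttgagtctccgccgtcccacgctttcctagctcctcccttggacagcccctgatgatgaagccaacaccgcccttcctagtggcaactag
Psmd9: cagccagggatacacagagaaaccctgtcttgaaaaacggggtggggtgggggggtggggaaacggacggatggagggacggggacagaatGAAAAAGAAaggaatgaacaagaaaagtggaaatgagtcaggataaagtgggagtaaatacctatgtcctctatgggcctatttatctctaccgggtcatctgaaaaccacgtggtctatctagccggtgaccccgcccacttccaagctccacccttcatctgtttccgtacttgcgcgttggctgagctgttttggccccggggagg

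The same letters were found in 8.56% of all 32851 promoter windows and in 6 of 36 windows of subunit genes (16.7%), those of *Psmb3*, *Psmb4*, *Psmc2*, *Psmd4*, *Psmd9* and *Psme1*. The core of the antioxidant response element, TGACNNNGC, was in 12.4% of all windows and in 6 of 36 subunit windows, those of *Psmb5*, *Psmb6*, *Psmc6*, *Psmd9*, *Psmd12* and *Psme4*. The CCAAT box was in 37.4% of all windows and 36.1% of the subunit windows. By the brightest probe of each, the genes with the first of these motifs gave 0.53 for *Psmd9* and -0.44 for *Psme1*. The rest gave -0.10 for *Psmd4*, -0.08 for *Psmc2* and -0.01 for *Psmb3* and *Psmb4*. The other *Psmd9* probe gave 0.02. Whether the motif has a part in these values was not tested. A promoter entry was found for 33 of the 40 subunit genes, and a match of letters is a description, not a site of binding.

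The genes around the proteasome were described with a list of 38 names of assembly factors, ubiquitin genes, shuttle factors and the p97 segregase, of which 34 were found on the array and 30 tested. Of their 47 tested probes 4 were higher (background 16%) and 5 lower (background 16.3%), or 19.1% against 32.3% of all tested probes, with 0 above a B-statistic of 5, and the median over names was -0.02. The interferon-induced catalytic subunits, which replace the standard ones in the immunoproteasome, were not alike. *Psmb8* was at 8.12, 8.22 and 8.45 with cel-239b and at 6.95, 7.16 and 6.97 with miR-294, a log2 fold change of -1.24 (SE 0.10, adjusted p = 2.8e-04). With the variance-stabilizing transformation it was -0.55. *Psmb9* was at 5.94, 6.17 and 6.38 with cel-239b and at 5.85, 5.82 and 5.44 with miR-294, a log2 fold change of -0.46 (SE 0.14, adjusted p = 0.047). Every miR-294 array was below every control for both genes, but the call of *Psmb9* held in 6 of 15 alternative fits. The dim *Psmb9* probe was detected on 3 cel-239b and 2 miR-294 arrays. With the variance-stabilizing transformation its log2 fold change was -0.09 (adjusted p = 0.093). A second *Psmb8* probe was detected on 0 arrays and was not tested. The probes of *Psmb10* gave 0.00 and 0.03.

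Other lower probes included those of the proteasome-binding protein Ecm29, listed on the array as *AI314180*, and the stress-induced *Zfand2a*. *AI314180* was at 8.79, 8.96 and 9.01 with cel-239b and at 8.44, 8.52 and 8.74 with miR-294, a log2 fold change of -0.35 (adjusted p = 0.028). *Zfand2a* gave -0.27 (adjusted p = 0.019). The call of *AI314180* was lost on leaving out control array 2, control array 3, miR-294 array 1 or miR-294 array 2 (adjusted p up to 0.092). That of *Zfand2a* was lost on leaving out control array 2, miR-294 array 1 or miR-294 array 3 (adjusted p up to 0.060). Higher were the probes of *Rps27a*, a fusion of ubiquitin and a ribosomal protein, 1 of 2 tested probes of the shuttle factor *Rad23b* and 1 of 3 of *Ubqln1*. The bright *Rps27a* probe was at 12.56, 12.67 and 12.54 with cel-239b and at 12.89, 12.83 and 12.84 with miR-294, a log2 fold change of 0.26 (adjusted p = 0.016). The dim *Rps27a* probe was detected on 1 cel-239b and 3 miR-294 arrays, so it passed the detection filter only through the group where it was high, and its count among the higher probes supports nothing. Its difference was 0.79 as reported and 0.16 with the variance-stabilizing transformation. *Rad23b* gave 0.20 (0.037) and *Ubqln1* 0.32 (0.047). The calls of *Rad23b* and *Ubqln1* each held in 7 of 16 alternative fits, with adjusted p-values up to 0.16 and 0.13. That of *Rad23b* was lost without any 1 of the 6 arrays, and that of *Ubqln1* without any 1 of them except cel-239b replicate 1. The call of the bright *Rps27a* probe was lost without cel-239b replicate 3 (adjusted p = 0.054) or miR-294 replicate 1 (0.051). The polyubiquitin gene *Ubb* gave -0.02. The transcription factor *Nfe2l1*, which drives subunit genes when the proteasome is inhibited, gave -0.12 (95% interval -0.27 to 0.03, adjusted p = 0.19), and the core assembly factor *Pomp* gave 0.13 (95% interval 0.00 to 0.26, adjusted p = 0.12).

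The 13 member probes that were not tested were detected on 0 arrays, with raw intensities of 42.2 to 94.0 where the array medians were 62.2 to 72.4. They were single probes of *Psma1*, *Psma3*, *Psma5*, *Psma6*, *Psmb2*, *Psmb3*, *Psmb11*, *Psmc6*, *Psmd5*, *Psmd8* and *Psmd11* and 2 probes of *Psmd3*. For *Psma1*, *Psma3*, *Psma6*, *Psmd3* and the thymus subunit *Psmb11* no other probe was tested, so these 5 genes have no value here. The other 7 genes with an undetected probe also have a tested one, detected on all 6 arrays except for that of *Psmc6*, which was detected on 5.

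**Figure D4:**
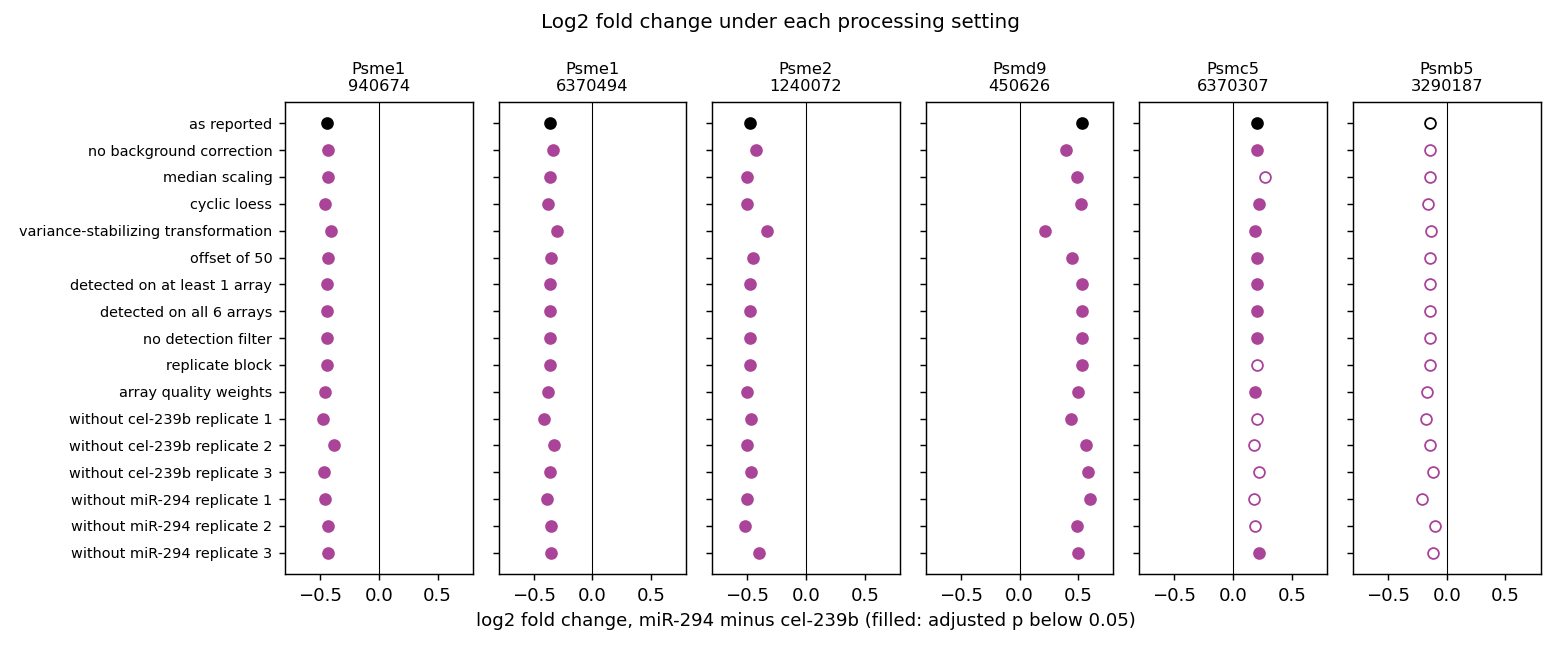
Log2 fold change (horizontal axis) of 6 member probes as reported and under 16 alternative settings (rows). Filled points have an adjusted p below 0.05. The Psme1, Psme2 and Psmd9 probes are filled in every row, Psmc5 in 9 of the 16 alternatives and Psmb5 in none.

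The plot of settings shows the *Psme1* probe 940674 between -0.48 and -0.38 and *Psme2* between -0.52 and -0.33 over all 16 alternatives. *Psmd9* probe 450626 ran from 0.22 to 0.60, and *Psmb5*, which was not called in any, from -0.21 to -0.10.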

How the data were processed

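Expression was measured in 6 ES cell samples, 3 with miR-294 and 3 with cel-239b, grouped by their labels. The authors deposited, for each array, non-normalized bead summary intensity per probe from GenomeStudio 1.0.6, its bead standard deviation (intensity units) and a detection score, a fraction from 0 to 1. A further 30 columns of per-array values were not used. Signals were background-corrected and quantile-normalized (neqc, offset 16, detection p from the detection score) and put on the log2 scale with limma 3.58.1 in R 4.3.3. Probes with a detection score above 0.99 on 3 or more arrays were fitted with lmFit and eBayes, and p-values were adjusted by Benjamini-Hochberg over all 14621 tested probes. Quantile normalization assumes like distributions on all arrays, the offset shrinks the differences of dim probes, and 6 arrays limit the precision.

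The members, structural groups and gene lists were chosen with earlier results of these data known, so no test was run over a list. Values on every array were given for called members, the catalytic subunits and the leading member of each structural group, and for called probes of the surrounding pathway up to 5 in each direction, some of which are not reported here. All 41 member symbols matched the RefSeq table of GRCm38.p6. Probes were not averaged within a gene, and medians took the brightest probe of each. Alternatives were other background correction, normalization, transformation, offset, detection filter, array weights, a replicate block, stricter thresholds, all probes in place of 1 per gene, and each array left out in turn. The fit was tested on simulated data.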

Additional observations from a re-analysis of the deposited data

How the results depend on the processing

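The signs and calls of both *Psme1* probes, *Psme2* and *Psmd9* probe 450626 held under all 16 alternative fits. Core probes called lower were 1 with the variance-stabilizing transformation (*Psma5*), and core probes called higher were 0 throughout. The core median was 0.00 with median scaling and -0.07 to -0.05 with an array left out. Regulatory and activator probes called higher, 2 as reported, were 5 without background correction, 1 with median scaling, 8 with the variance-stabilizing transformation, 4 with an offset of 50, 5 with array weights, 0 at a B-statistic above 5, 1 at an adjusted p below 0.01, and 1 to 5 with an array left out, the 5 coming without cel-239b replicate 1 and the 1 without cel-239b replicate 2, miR-294 replicate 1 or miR-294 replicate 2. Those called lower, 3 as reported, were 0 at a B-statistic above 5 and 3 to 4 with an array left out. The regulatory median was 0.04 with median scaling and -0.01 to 0.03 with an array left out. Pathway probes called higher, 4 as reported, were 8 with the variance-stabilizing transformation, 7 with array weights, 0 at a B-statistic above 5, 1 at an adjusted p below 0.01 and 1 to 7 with an array left out. Those called lower, 5 as reported, were 3 without a detection filter, 0 at a B-statistic above 5, 1 at an adjusted p below 0.01 and 1 to 5 with an array left out. The cause of these shifts was not tested.

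The replicate numbers were not taken as pairs. Same-numbered arrays deviated together with correlations of 0.139, -0.078 and 0.141, and differently numbered arrays of the groups with -0.204 to 0.079. These values do not settle whether the numbers pair the arrays. With the replicate block, 2 regulatory probes were higher and 3 lower, with 0 core probes in either direction, a core median of -0.06 and a regulatory median of 0.01. Pathway probes were 4 higher and 4 lower. The replicate block ended the calls of *Psmc5* (0.20, adjusted p = 0.067), *Rad23b* (0.077) and *Psmb9* (0.094) and added that of *Psmd10* probe 1580435 (0.28, 0.031), so the 2 higher regulatory probes were *Psmd9* and *Psmd10*. The 4 higher pathway probes also include a call gained with the block, whose gene is not reported here. Dim probes had the widest intervals, and probes near background are limited by signal over background.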
